A study of Mus musculus with 6 samples.

Results

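The IL-4 and IL-13 axis was read here as 10 genes, chosen by name and taken in 3 roles: the cytokines Il4, Il13, Il5 and Il33, the receptor chains Il4ra, Il13ra1, Il2rg and Il1rl1, and the negative regulators Socs1 and Socs3. They are 10 of the 20649 genes of the matrix, and all 10 had UMIs. CD45-positive cells came from CT26 colon carcinoma tumors that had grown under the skin of BALB/c mice after injection of 500000 CT26 cells. The labels list 3 tumors injected with exoASO-STAT6, exosomes that carry an antisense oligonucleotide (ASO) against Stat6, and 3 with exoASO-Scramble, exosomes with a scrambled ASO. Each tumor received 3 intratumoral injections on alternate days and was collected 24 hours after the last. All tumors thus received exosomes and an ASO, and cells without CD45 (tumor, stroma, endothelium) were selected against.

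IL-4 and IL-13 are the cytokines upstream of the transcription factor STAT6. IL-4 binds the IL-4 receptor α chain (Il4ra), which pairs with the common γ chain (Il2rg) in lymphoid and myeloid cells to form the type I receptor, or with Il13ra1 to form the type II receptor, which also takes IL-13. Janus kinases on these chains phosphorylate STAT6, and SOCS proteins, whose genes are themselves switched on by STAT factors, damp the signal. In tumors the axis is best known for alternative activation of macrophages, while Il1rl1 encodes ST2, the receptor through which the alarmin IL-33 drives basophils, mast cells, group 2 innate lymphoid cells and some T cells to release type 2 cytokines.

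The matrix held 9235 barcodes (cells or droplets) with 140562949 UMIs (unique molecular identifiers, each 1 captured transcript), and a median of 11846 UMIs per barcode. Barcodes end in the numbers 3 to 8, which match no label, so that they mark 6 libraries of unknown treatment, of 867 to 2017 barcodes and 11492757 to 33902084 UMIs. No change between exoASO-STAT6 and exoASO-Scramble could be computed, since no library was given a treatment, and no test was run. Levels are UMIs of a gene per 1000000 UMIs summed over a set of barcodes (CPM), with exact Poisson 95% intervals, shares of barcodes carry exact Clopper-Pearson intervals, and both cover counting error only. The libraries share 16 barcode sequences, each found in 2 of them. How often a gene was higher in one set than in another within a library is given as a description.

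Cell groups were set by gates on marker UMIs. The gates were basophil (Mcpt8 plus Ms4a2, at least 2), T (Cd3e, Cd3d and Cd3g, at least 2), NK (Ncr1, at least 1), macrophage (Csf1r plus Adgre1, at least 3), neutrophil (S100a9, at least 5), dendritic (Flt3, at least 1) and B (Cd79a, at least 2). They took 71, 1558, 1163, 6285, 1049, 344 and 82 barcodes. The gates overlapped widely: 2389 barcodes (25.9%) passed more than 1 gate, 5088 passed exactly 1 and 1758 passed none. Of 1558 T barcodes, 1063 also passed the macrophage gate, and these held a median of 28459 UMIs against 8492 in the other T barcodes. Barcodes of the T gate alone still held the 9-gene macrophage list at 1616 CPM (847 to 4956 by library), against 15995 CPM in the macrophage gate alone. Barcodes of the neutrophil gate alone held that list at 6728 CPM (4909 to 9056), beside 11114 CPM of the 7-gene neutrophil list, and its part in the values given for neutrophils was not tested. The basophil gate alone is not of 1 cell type either: 5 of its 33 barcodes are rich in mast cell proteases, and the 5-gene mast cell list summed to 16805 CPM (0 to 64496 by library) beside 17137 CPM of the basophil list. No doublet caller was applied here. Levels are therefore given mainly for the 33 basophil, 409 T, 341 NK, 4008 macrophage, 113 neutrophil, 147 dendritic and 37 B barcodes that passed only that gate, called by its name below, and whole-gate values that differ from these by more than 1.5 times stand beside the receptor chains and Socs genes.

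The sequences below are the starts of the genes whose transcripts shared the basophil gate, Il4, Il13 and Il1rl1, and of Socs3, whose product is a feedback inhibitor. They are RefSeq windows of GRCm38.p6 from 250 bases before to 50 bases after a start site, printed 5′ to 3′ on the strand of the gene, and all 10 members matched (13 windows). Capitals mark matches to TTCNNNNGAA or TTCNNNGAA, the spacings bound by STAT6 and by other STAT factors, and to AGATAA, a motif of GATA factors. On the opposite strand that motif reads TTATCT. Il4 lies on chr11:53618616-53618915 (minus strand) in the window of its 5′-most start, Il13 on chr11:53634653-53634952 (minus), Il1rl1 on chr1:40429320-40429619 (plus) and Socs3 on chr11:117969317-117969616 (minus).
Il4: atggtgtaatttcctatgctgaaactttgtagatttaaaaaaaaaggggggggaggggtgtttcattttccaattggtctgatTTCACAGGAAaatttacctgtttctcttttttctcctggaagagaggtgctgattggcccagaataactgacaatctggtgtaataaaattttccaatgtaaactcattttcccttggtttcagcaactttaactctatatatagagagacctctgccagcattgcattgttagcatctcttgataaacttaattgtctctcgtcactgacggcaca
Il13: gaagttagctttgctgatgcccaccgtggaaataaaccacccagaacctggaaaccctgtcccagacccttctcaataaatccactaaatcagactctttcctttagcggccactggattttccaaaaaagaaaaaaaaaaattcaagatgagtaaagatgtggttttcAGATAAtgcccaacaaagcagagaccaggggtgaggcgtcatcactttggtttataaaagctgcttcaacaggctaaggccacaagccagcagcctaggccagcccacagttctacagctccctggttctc
Il1rl1: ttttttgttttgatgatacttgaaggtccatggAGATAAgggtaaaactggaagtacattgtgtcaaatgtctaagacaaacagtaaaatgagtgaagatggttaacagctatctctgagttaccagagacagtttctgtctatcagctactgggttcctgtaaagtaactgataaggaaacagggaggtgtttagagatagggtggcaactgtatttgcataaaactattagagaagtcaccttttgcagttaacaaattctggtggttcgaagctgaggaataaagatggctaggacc
Socs3: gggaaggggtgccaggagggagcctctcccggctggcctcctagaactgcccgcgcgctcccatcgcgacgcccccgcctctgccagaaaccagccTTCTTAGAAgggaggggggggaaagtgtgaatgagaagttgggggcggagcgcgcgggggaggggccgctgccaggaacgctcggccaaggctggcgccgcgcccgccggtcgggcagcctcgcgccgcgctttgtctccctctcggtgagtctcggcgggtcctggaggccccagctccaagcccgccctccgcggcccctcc

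With the start site as position 0, the match in the Il4 window is TTCACAGGAA at -167, that of Il13 is AGATAA at -81, that of Il1rl1 is AGATAA at -217 and that of Socs3 is TTCTTAGAA at -154. A second Il1rl1 window (chr1:40439379-40439678) holds TTATCT at -103, a second Il4 window (chr11:53617289-53617588) holds TTCATGGAA at -4, and Il33 (chr19:29924863-29925162) holds TTCTGGGGAA at -36. Both strands were searched. Among all 32851 windows of this length, 6.95% hold TTCNNNNGAA, 8.30% hold TTCNNNGAA and 11.2% hold the GATA letters. GGAAA or TTTCC, the core of NFAT sites, occurs in 61.3% of all windows, and in the Il4 window it was found 5 times, 1 of them overlapping the STAT6-type match. The windows of Il4ra, Il13ra1, Il2rg, Socs1 and Il5 hold none of the STAT or GATA letters, which says only that these letters are absent there. Il4 (chr11:53602982-53618669, minus), Il13 (chr11:53631324-53634702, minus) and Il5 (chr11:53720794-53725106, plus) sit in one cytokine cluster, with 12654 bases between Il4 and Il13 and 86091 between Il13 and Il5 (GENCODE M21, GRCm38).

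Il4, the cytokine that defines the type 2 response, was a rare transcript, with 230 UMIs in 55 of 9235 barcodes. Suffix 6 held 113 of these UMIs, at 5.37 CPM over all its barcodes, against 0.226 to 2.04 in the other libraries. The 71 barcodes of the basophil gate, which hold 0.807% of all UMIs, held 42.2% of the Il4 UMIs (35.7% to 48.8%). In the 33 barcodes that passed only this gate, Il4 stood at 749 CPM (593 to 933, from 79 UMIs in 15 barcodes). By library it ranged from 350 CPM in suffix 5 to 1594 in suffix 8, with a median of 797 over 6 libraries that held 2 to 14 of these barcodes each. All 6 libraries lay above the T gate alone, where Il4 was 2.54 CPM (1.22 to 4.66, 10 UMIs in 8 of 409 barcodes) and ranged from 0 to 8.10. Macrophage barcodes, which should lack the gene, held 4 Il4 UMIs in 1 of 4008 barcodes, of suffix 6, 0.0683 CPM (0.0186 to 0.175). The share with an Il4 UMI was thus 45.5% in the basophil gate alone, at a median of 2728 UMIs per barcode, and 0.0250% in the macrophage gate alone, at a median of 12591.5.

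Il13, which shares the type II receptor with IL-4 and is known for its action on epithelium and macrophages, was distributed much like Il4. It had 265 UMIs in 53 barcodes, with 132 of the UMIs in suffix 6. The basophil gate held 46.4% of all Il13 UMIs (40.3% to 52.6%). The level in the basophil gate alone was 777 CPM (618 to 965, 82 UMIs in 16 of 33 barcodes), and by library it ran from 95.6 in suffix 5 to 2047 in suffix 7, with a median of 1071. The libraries differed more for Il13 than for Il4: suffixes 3 and 5 held 1 and 3 Il13 UMIs in these barcodes, the others 10 to 43. In the T gate alone Il13 was 7.10 CPM (4.72 to 10.3), with all 28 UMIs in 5 barcodes, and it lay below the basophil gate alone in 6 of 6 libraries. Macrophage barcodes of a single gate held 8 Il13 UMIs, all of suffix 6 (0.137 CPM). No Il13 UMI was found in the 341 NK, 113 neutrophil, 147 dendritic or 37 B barcodes of a single gate, where 3 counts would be 0.995, 3.28, 1.92 and 17.5 CPM. After thinning to 1000 UMIs per barcode, 30.3% of the basophil barcodes held Il4 and 30.3% held Il13, against 0.498% and 0.995% of the T barcodes.

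**Figure D1:**
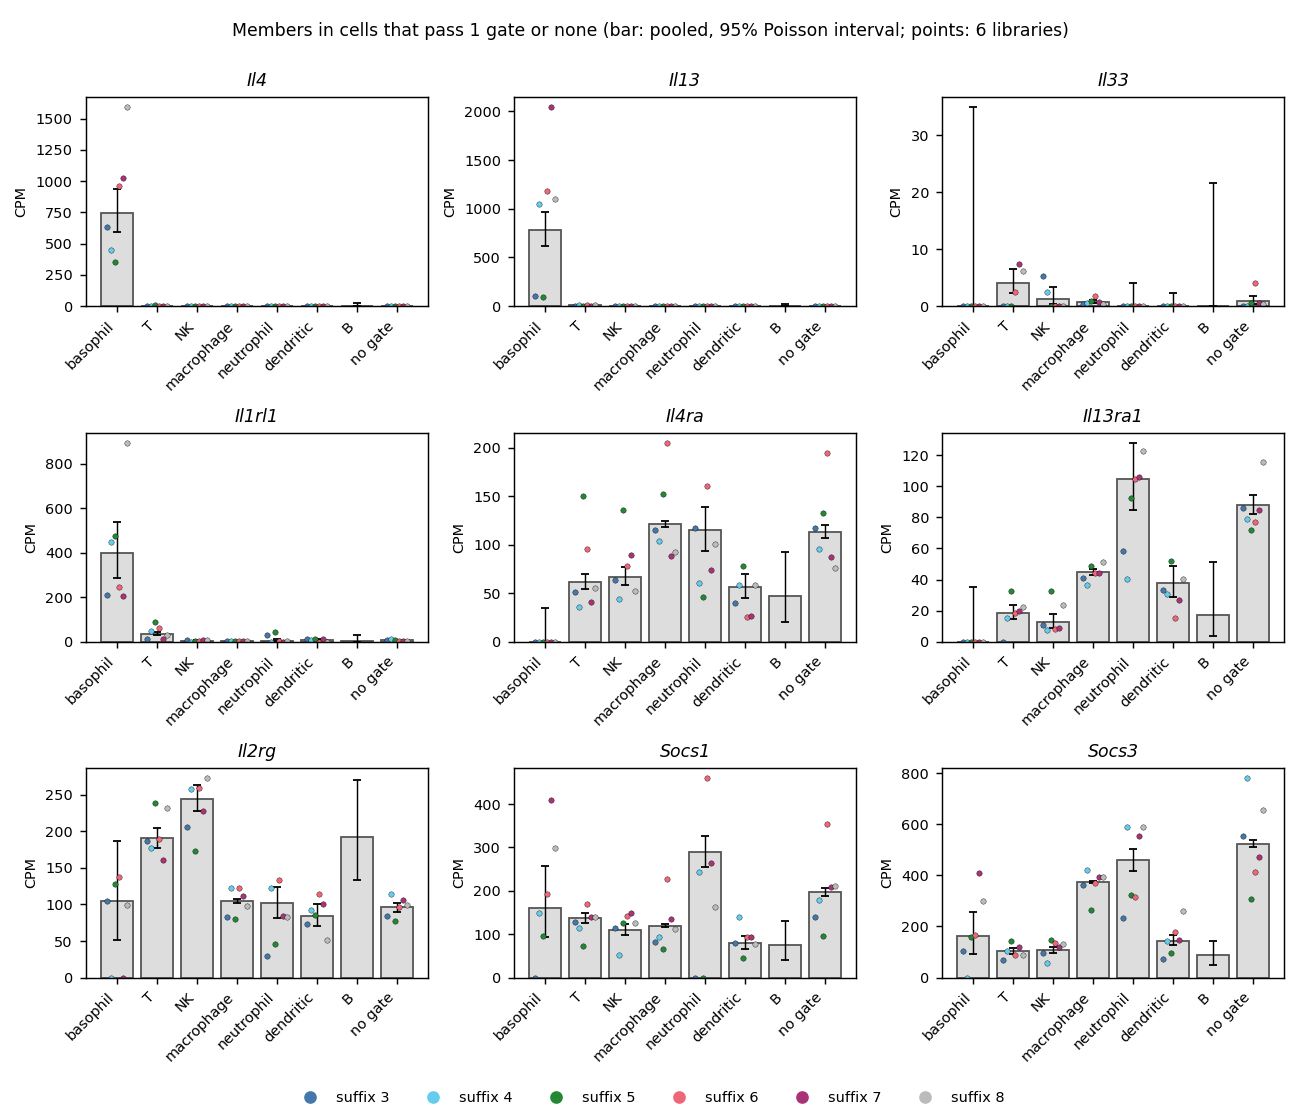
Level of 9 members in barcodes that passed only 1 gate or none. Bars are CPM pooled over the libraries with exact Poisson 95% intervals, and points are the 6 libraries of unknown treatment, not drawn for the B gate. Il4, Il13 and Il1rl1 peak in the basophil gate, where Il4ra and Il13ra1 are at 0, while Il4ra and Socs3 are high in macrophage and neutrophil barcodes.

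The rest of the ligand was mostly in T-gate barcodes. Outside the basophil gate, T barcodes held 124 Il4 UMIs (53.9%) and 125 Il13 UMIs (47.2%), in 28 and 22 of 1540 barcodes. A median of 2 UMIs was found per holding barcode, and 13 of the 28 and 9 of the 22 held a single UMI. These sums leaned on a few barcodes and on suffix 6, which held 69 of the 124 Il4 UMIs and 75 of the 125 Il13 UMIs. One barcode of suffix 6, with 22233 UMIs and both T and dendritic gates passed, held 48 of the 124 Il4 UMIs, together with 15 UMIs of Cd4, 4 of Cd8a and 5 of Gata3, and without it Il4 fell from 3.32 to 2.03 CPM in the T gate outside the basophil gate. Another barcode of suffix 6, with 71095 UMIs and the T, macrophage and neutrophil gates passed, held 39 of the 125 Il13 UMIs with 18 of Gata3, and without it Il13 fell from 3.34 to 2.30 CPM. The same Il4 barcode accounts for 48 of 49 Il4 UMIs in the dendritic gate.

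T barcodes with a ligand UMI more often held Cd4 and Gata3. Of the 28 with Il4, 71.4% held a Cd4 UMI, against 25.2% of T barcodes without Il4, and 71.4% against 39.2% held Gata3, the transcription factor that defines type 2 helper cells. Cd8a went the other way, at 7.14% against 51.2%, and Foxp3, the regulatory T cell factor, was found in 1 of the 28 (0.0904% to 18.3%, against 13.0% of the others). Depth was alike, with a median of 21151 UMIs with Il4 and 21579.5 without, and 19 of the 28 also passed the macrophage gate. Of the 22 with Il13, 90.9% held Cd4 and 81.8% Gata3, against 25.1% and 39.2% of the others, and none held Foxp3 (up to 15.4% by its interval, against 13.0%). Rora, another transcription factor of type 2 cells, was at 81.8% against 50.1% for Il13 but at 46.4% against 50.6% for Il4. Il1rl1, the receptor of IL-33, was held by 46.4% of the T barcodes with Il4 and by 40.9% of those with Il13, against 14.6% and 14.8% of the others. Among T barcodes outside the macrophage and basophil gates, Il13 was at 36.1 CPM (22 UMIs in 3 barcodes) in the 68 CD4 barcodes, 7.12 CPM (6 UMIs in 2) in the 113 with none of Cd4, Cd8 and Foxp3, 0.333 CPM in the 238 CD8 barcodes and 0 in the 62 with Foxp3. Il4 there was 8.20 CPM (5 UMIs) in CD4, 5.93 CPM (5 UMIs) in the unclassified and 16 CPM in CD8 barcodes, the last from the 1 barcode with 48 Il4 UMIs, which has both Cd4 and Cd8a.

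Some barcodes held both Il4 and Il13. Of the 33 barcodes of the basophil gate alone, 15 held Il4, 16 held Il13, 8 held both and 23 (69.7%) held at least 1 of them. In the whole basophil gate 32 of 71 (45.1%) held either cytokine and 11 held both. In the T gate outside it, 40 of 1540 (2.60%) held either and 10 held both. Barcodes with 4 or more UMIs of the 2 genes together numbered 33, of which 17 passed the basophil gate, 15 the T gate without it and 1 neither, and 21 of the 33 came from suffix 6 or 8. In the basophil gate the barcode with most ligand, with 13 Il4 and 26 Il13 UMIs, held 6027 UMIs in all, far fewer than the T barcodes at the top. Only 10 barcodes outside all gates held both Gata3 and Il7r, used here to look for innate lymphoid cells. They held 1 Il4 UMI, no Il13 and 10 Il1rl1 UMIs. These 2 genes are not particular to such cells: of T barcodes without Il4, 39.2% held Gata3 and 70.5% held Il7r.

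**Figure D2:**
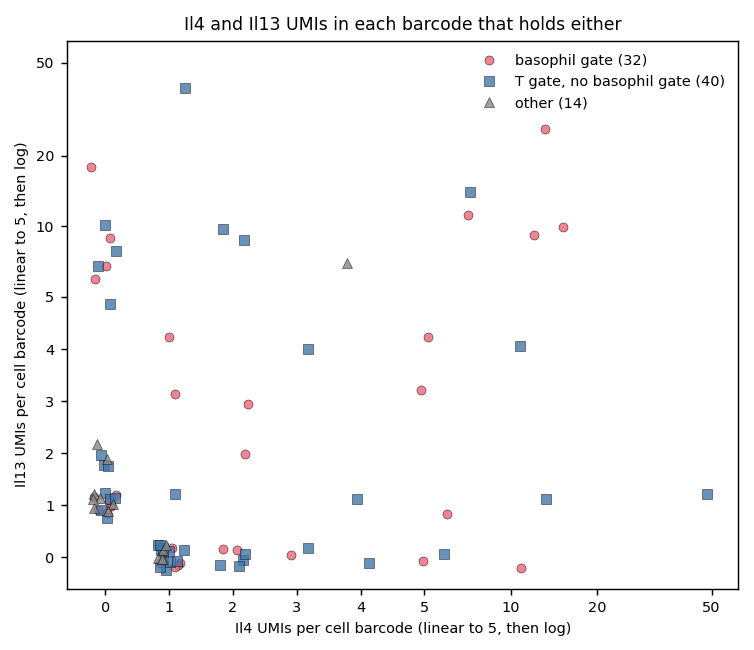
Il4 UMIs (x axis) and Il13 UMIs (y axis) in each of the 86 barcodes with a UMI of either gene, with points spread slightly so that equal values can be seen. Colors give the 32 barcodes of the basophil gate, the 40 of the T gate outside it and the 14 others. Both axes are occupied in both gates, and the highest values of each gene lie in T-gate barcodes.

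The basophil gate was not of one kind. It was split after its values had been seen, by further genes and by the gate marker Ms4a2, and the split is a description. A first set of 37 barcodes held a UMI of Gata2, Ms4a2 or Cd200r3 (basophil genes) and fewer than 20 UMIs of the mast cell proteases Tpsb2, Tpsab1, Cma1 and Mcpt4. All 37 held Hdc, the histamine-forming enzyme, and Kit, Cma1 and Tpsb2 had no UMI in them. This set held 91.8% of the gate's Il4 UMIs and 90.2% of its Il13 UMIs in 16.3% of the gate's UMIs, with Il4 at 481 CPM (386 to 592) and Il13 at 600 CPM (493 to 722), and 26 of the 37 held either. By library Il4 ran from 128 CPM in suffix 5 to 1459 in suffix 8 and Il13 from 38.5 in suffix 5 to 2032 in suffix 4, and without suffix 5, which has 15 of the 37 barcodes, Il4 was 737 CPM and Il13 was 1008.

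A second set of 11 barcodes had at least 20 protease UMIs, so that Cma1, at 21868 CPM, was high there by construction. Kit, which the rule did not use, was 299 CPM, as in mast cells. Il4 was 99.6 CPM on 8 UMIs and Il13 was 149 CPM on 12, while Il1rl1 was 622 CPM (462 to 820), held by 9 of the 11. The ligand UMIs came mostly from the 3 barcodes of suffix 4, and without them Il4 was 58.8 CPM on 3 UMIs and Il13 was 19.6 CPM on 1. None of these barcodes came from suffixes 7 or 8. The third set, 23 barcodes, had by construction passed on Mcpt8 and had no UMI of Gata2, Ms4a2 or Cd200r3, and 22 of them passed the NK or the T gate. Gzma, a granzyme of cytotoxic cells, was 6692 CPM there and Ncr1 242 CPM, with a median of 33852 UMIs per barcode, and Il4, Il13 and Il1rl1 had no UMI, where 3 counts would be 3.45 CPM. This set held 76.6% of the gate's UMIs, 73.2% of its Il4ra UMIs and 81.0% of its Il2rg UMIs. The CPM of the whole gate, 85.6 for Il4 and 108 for Il13, is thus a level over a large amount of other RNA. By library it ran from 10.5 in suffix 4 to 304 in suffix 6 for Il4, and from 7.39 in suffix 3 to 368 in suffix 6 for Il13.

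**Figure D3:**
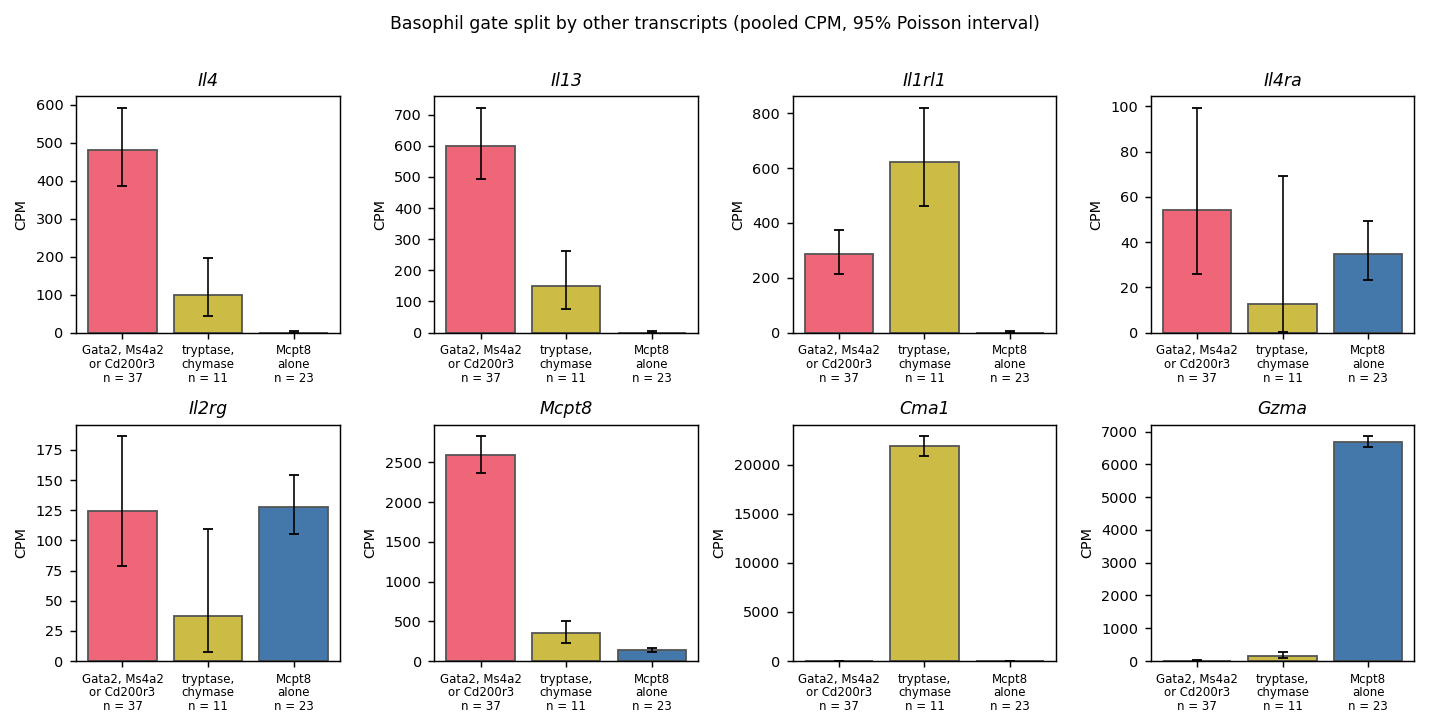
Level (CPM, pooled, exact Poisson 95% intervals) of 8 genes in the 37, 11 and 23 barcodes into which the basophil gate was split after its values were seen. Il4 and Il13 are highest in the set with basophil genes. Il1rl1 is highest in the set with mast cell proteases, as is Cma1, which helped to define that set. The set with Mcpt8 alone has no UMI of Il4, Il13 or Il1rl1 and the highest Gzma.

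The other cytokines of the axis were at or near 0. Il5, which drives eosinophils and lies in the same cluster, had 3 UMIs in 3 barcodes: 2 in CD4 T barcodes outside the macrophage gate, of suffixes 6 and 7, and 1 in an ungated barcode of suffix 3. The basophil gate had none, where 3 counts would be 2.65 CPM. Il33 had 112 UMIs in 87 barcodes, 4.06 CPM in the T gate alone (2.32 to 6.59, and 2.57 without suffix 7), 1.33 in the NK gate alone (4 UMIs, and 0.759 without suffix 3), 0.751 in the macrophage gate alone and 0 in the neutrophil, dendritic and B gates alone. IL-33 is released mainly by epithelial and stromal cells, and the 9-gene tumor and stroma list summed to 54.8 to 152 CPM in the single gates, with Krt8 at 0 in every one of them. The part of the CD45 selection in the low Il33 was not tested.

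Il1rl1, the IL-33 receptor, had its highest level of the single gates in basophils, as the ligands did. In the basophil gate alone it was 398 CPM (287 to 538), from 205 in suffix 7 to 896 in suffix 8, with a median of 348. Inside the whole basophil gate the order differed from that of the ligands, with 622 CPM in the 11 barcodes rich in mast cell proteases and 286 in the 37 with basophil genes. In suffixes 3 and 4 the set with basophil genes, of 2 barcodes each, had no Il1rl1 UMI, and the protease-rich set had 8 and 14. The basophil gate alone was above the T gate alone in 6 of 6 libraries. In the T gate alone Il1rl1 was 37.0 CPM (31.3 to 43.5) with a library range of 11 to 89.2. NK (4.97 CPM), neutrophil (5.46), dendritic (7.68) and macrophage barcodes (2.48) of a single gate lay lower still. In the whole gates Il1rl1 was 90.8 CPM in the basophil gate (24.4 in suffix 4 to 339 in suffix 5), 15.3 in the T and 5.42 in the macrophage gate. A UMI was held by 60.6% of basophil, 13.4% of T and 3.32% of macrophage barcodes, at median depths of 2728, 7451 and 12591.5 UMIs. Since T barcodes are many, 54.3% of the 980 Il1rl1 UMIs lay in the T gate outside the basophil gate and 10.5% (8.66% to 12.6%) in the basophil gate. Of the same 980 UMIs, 4.29% lay in the basophil gate alone and 6.12% in that gate with doubled minimums. Within T barcodes outside the macrophage gate, Il1rl1 was 75.5 CPM in CD4 and 71.8 in Foxp3 barcodes against 12.5 in CD8 barcodes, and each exceeded CD8 in 5 of 6 libraries.

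Il4ra, the chain common to both receptors, led in macrophages and neutrophils and had no UMI in the basophil gate alone, where its ligands peaked. It had 15989 UMIs in 5437 barcodes. In barcodes of a single gate it was 121 CPM in macrophages (118 to 124), 115 in neutrophils (93.8 to 139), 67.0 in NK cells (58.1 to 76.9), 61.9 in T cells (54.4 to 70.1), 56.3 in dendritic cells (45.2 to 69.4) and 46.8 in B cells (20.2 to 92.2, 8 UMIs). Macrophages ranged from 88.0 in suffix 7 to 205 in suffix 6 with a median of 109.5, and T cells from 35.6 in suffix 4 to 149.9 in suffix 5 with a median of 53.3. Within libraries, macrophages exceeded T and dendritic cells in 6 of 6, NK cells in 5 of 6 and neutrophils in 4 of 6, while T and NK cells each led in 3. The order among T, NK, dendritic and B cells was therefore not resolved beyond the spread of the libraries, and neither was that of macrophages and neutrophils. Suffix 6 raised the macrophage value: without it, a choice made after seeing the data, the level was 107 CPM. In whole gates, most of whose barcodes also passed another for T, NK, dendritic and B, Il4ra was 103 CPM in T, 104 in NK, 89.7 in dendritic, 96.9 in B and 36.2 in basophil barcodes, so that the gap to macrophages (118) was smaller there.

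Barcodes of the basophil gate alone had no detected Il4ra. None of the 33 barcodes of the basophil gate alone held an Il4ra or an Il13ra1 UMI in 105504 UMIs, where 3 counts over the group would be 28.4 CPM. Against that floor, Il4ra was at least 4.26-fold higher in macrophages, 4.03-fold in neutrophils, 2.36-fold in NK cells and 2.18-fold in T cells of a single gate. The set of 37 with basophil genes held 10 Il4ra UMIs (54.0 CPM), all in 2 barcodes that also passed the macrophage, neutrophil and dendritic gates. Without suffix 7 that set was at 25.7 CPM on 4 UMIs. In the 33 barcodes, at a median of 2728 UMIs per barcode, a level below the floor of 28.4 CPM was not detectable. Ligand-rich barcodes of the T gate did hold the chain in part: 1 with 7 Il4 and 14 Il13 UMIs, which also passed the macrophage and neutrophil gates, had 24 Il4ra UMIs, and the barcode with 39 Il13 UMIs had 1 of Il4ra and 4 of Il13ra1. Il2rg, by contrast, was present in the basophil gate alone at 104 CPM (52.0 to 187), close to macrophages.

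T and NK barcodes that also passed the macrophage gate held more Il4ra and Il13ra1 than those that did not. Il4ra was 110 CPM in T barcodes inside the macrophage gate and 58.4 outside it (higher inside in 6 of 6 libraries), and Il13ra1 was 29.9 against 18.5 (6 of 6). Il2rg went the other way, with 139 CPM inside and 189 outside, lower inside in 6 of 6, and so did Il1rl1, with 11.9 against 36.7. In the NK gate, Il4ra was 112 CPM inside and 62.9 outside (5 of 6). The part of mixed droplets in these differences was not tested. Among T barcodes outside the macrophage gate, Il4ra was 105 CPM in CD4 and 95.8 in Foxp3 barcodes against 45.2 in CD8 barcodes, with each above CD8 in 6 of 6 libraries.

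Il13ra1, the second chain of the type II receptor, was a myeloid transcript here, with 5881 UMIs in 3568 barcodes. In single gates it was 105 CPM in neutrophils (85.0 to 128), 44.8 in macrophages (43.1 to 46.5), 37.8 in dendritic cells (28.8 to 48.7), 18.8 in T cells (14.7 to 23.6), 12.9 in NK cells (9.20 to 17.7) and 17.5 in B cells (3 UMIs in 1 barcode). Neutrophils exceeded macrophages, and macrophages exceeded T and NK cells, in 6 of 6 libraries, but suffixes 3, 4 and 5 have 5 neutrophil barcodes each, with 2 Il13ra1 UMIs each. Neutrophils ranged from 40.7 in suffix 4 to 122 in suffix 8 (median 98.7) and macrophages from 36.2 to 51.5 (median 44.1). The 1758 barcodes of no gate, with a median of 4919 UMIs, stood at 88.0 CPM, above macrophages in 6 of 6. They held the macrophage list at 8277 CPM. In whole gates Il13ra1 was 47.0 CPM in neutrophils (44.3 to 49.8) and 39.4 in macrophages (38.3 to 40.6), a much smaller gap than in single gates, and 28.4 in T, 26.2 in NK, 34.4 in B and 7.94 in basophil barcodes.

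Il2rg, the γ chain shared with the receptors of IL-2, IL-7, IL-15 and others, led in lymphoid barcodes. It was 245 CPM in NK cells (228 to 263), 193 in B cells (133 to 271) and 191 in T cells (177 to 205), against 105 in macrophages, 102 in neutrophils and 84.5 in dendritic cells of a single gate. T and NK cells each exceeded all 3 myeloid gates in 6 of 6 libraries, and NK exceeded T cells in 5 of 6. T cells ranged from 161 to 239 (median 188) and macrophages from 80.0 to 123 (median 104), so that their library values did not overlap. CD4 (266) and Foxp3 (263) T barcodes outside the macrophage gate were above CD8 (161). The whole NK and B gates stood at 156 and 125 CPM.

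The balance of chains differed by gate. The ratio of Il2rg to Il4ra UMIs was 3.66 in NK cells (1.28 to 5.86 by library), 3.08 in T cells (1.59 to 5.00), 1.5 in dendritic cells, 0.886 in neutrophils and 0.866 in macrophages (0.524 to 1.26), and is read only between gates, since 3′ counting need not capture 2 genes equally. The ratio of Il13ra1 to Il4ra was 0.914 in neutrophils (0.5 to 2 by library), 0.67 in dendritic cells and 0.370 in macrophages (0.215 to 0.554). It was 0.303 in T cells, 0.193 in NK cells and 0.776 in ungated barcodes. In whole gates it was 0.386 in neutrophils, 0.385 in dendritic cells and 0.333 in macrophages, which lay much closer together than in single gates. The whole-gate ratio of Il2rg to Il4ra was 1.417 in T and 1.498 in NK barcodes, against 0.995 in macrophages. At 5000 UMIs per barcode, Il4ra was held by 38.8% of macrophages (37.2% to 40.4%), 31.7% of neutrophils, 26.5% of NK, 23.1% of T and 20% of dendritic barcodes. Il4ra with Il2rg, the type I pair, was held by 14.8% of macrophages (13.7% to 16%), 13.4% of T (9.58% to 17.9%), 15.5% of NK (11% to 21%) and 12.2% of neutrophils (6.01% to 21.3%), whose intervals overlap, and by 7.2% of dendritic (3.35% to 13.2%) and 11.3% of ungated barcodes (9.22% to 13.6%), whose intervals lie below that of macrophages. Il4ra with Il13ra1, the type II pair, was held by 13.4% of neutrophils (6.89% to 22.7%) and 7.74% of macrophages (6.90% to 8.64%), against 3.97% of T (2.0% to 6.99%), 2.4% of dendritic (0.498% to 6.85%) and 1.37% of NK (0.283% to 3.95%). Ungated barcodes held it in 11.1% (9.11% to 13.4%). Basophil and B barcodes of that depth, 4 and 13, were too few for shares.

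Macrophages were next split by whether C1q genes or the monocyte genes Ly6c2, Plac8 and Vcan had more UMIs (2547 and 1393 barcodes of the macrophage gate alone). Il13ra1 was 78.1 CPM on the monocyte side and 32.9 on the C1q side, Il2rg 124 and 98.3, Socs1 213 and 87.7 and Socs3 534 and 315, each higher on the monocyte side in 6 of 6 libraries. Il4ra was 157 against 109 CPM pooled, but higher on the monocyte side in only 3 of 6 libraries. The pooled gap came from suffix 6, where the monocyte side was 269 CPM and the C1q side 136, and without that library it was 109 against 106. The monocyte side made up 60% of macrophage-only barcodes in suffix 6 and 19.8% to 40.3% in the others.

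**Figure D4:**
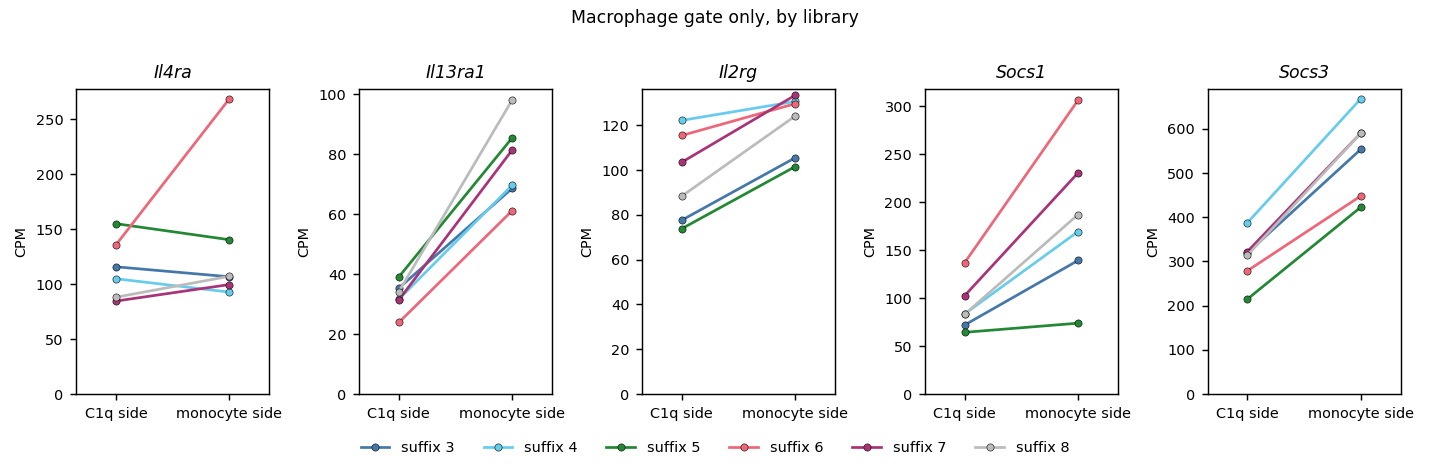
Level of Il4ra, Il13ra1, Il2rg, Socs1 and Socs3 (CPM) on the C1q side and the monocyte side of the macrophage gate alone, with lines joining the 2 sides of each of the 6 libraries. All lines rise toward the monocyte side for Il13ra1, Il2rg, Socs1 and Socs3, whereas for Il4ra 3 rise and 3 fall, suffix 6 rising most.

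Socs1, an inhibitor of Janus kinases induced by interferons and by IL-4, was found in all gates, with 17880 UMIs in 4797 barcodes. It was 290 CPM in neutrophils of a single gate (256 to 327), 161 in basophils (93.9 to 258), 137 in T cells (126 to 150), 120 in macrophages (117 to 123), 111 in NK cells (99.2 to 123), 80.0 in dendritic cells and 76.0 in B cells (43.2 without suffix 7). Libraries differed widely: macrophages ranged from 65.9 in suffix 5 to 227 in suffix 6 (median 103), T cells from 72.9 to 171 (median 134) and neutrophils from 0 to 460 (median 203). Without suffix 6 the neutrophil level was 187 CPM and the macrophage level 102. The whole neutrophil gate stood at 156 CPM and the whole basophil gate at 78.5. The order of neutrophil, T, macrophage and NK cells was thus not resolved beyond that spread. Barcodes of no gate held Socs1 at 197 CPM (170 without suffix 6). Rsad2, an interferon-induced gene and the nearest in pattern to Socs1, was 754 CPM in macrophages of suffix 6 and 154 to 313 in the others. In neutrophils both genes were also highest in suffix 6 (Rsad2 2400 CPM). In T cells Rsad2 was highest in suffix 8 (343 CPM, 330 in suffix 6) and Socs1 in suffix 6. In NK cells Socs1 was highest in suffix 7 (148 CPM), where Rsad2 was 50.2, against 612 in suffix 6. Among all 344 barcodes of the dendritic gate, 197 of which passed another gate too, those with Ccr7 or Fscn1 held 124 CPM of Socs1, against 92.6 in Xcr1 or Clec9a and 69.7 in Siglech barcodes, higher in 6 of 6 libraries in both cases. These sets, of 88, 131 and 111 barcodes, share some barcodes.

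Socs3, the feedback inhibitor of the IL-6 family receptors and of G-CSF, had the most UMIs of the 10 members, 46362 in 7020 barcodes, and was myeloid. It was 459 CPM in neutrophils (416 to 505) and 373 in macrophages (368 to 378), against 145 in dendritic cells, 107 in NK cells, 103 in T cells (93.4 to 114) and 87.7 in B cells of a single gate. Macrophages, at 263 to 422 CPM by library (median 380.5), did not overlap with T cells, at 69.7 to 142 (median 97.4). Neutrophils ranged from 234 to 590 and overlapped with macrophages. In T barcodes inside the macrophage gate Socs3 was 269 CPM, and 106 outside it, higher inside in 6 of 6 libraries, whereas Socs1 was 116 inside and 137 outside. Barcodes of no gate held 523 CPM. In whole gates Socs3 was 246 CPM in T, 227 in NK, 224 in dendritic and 239 in B barcodes, nearer to the 332 of macrophages.

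Set against all other barcodes, 9 of the 10 members had enough UMIs (at least 20) for a fold, and the share of all 14751 such genes at 2-fold or more is given for each gate. In the basophil gate 4 of 9 members were at that fold, where 9.42% of all genes were: Il13 at 107-fold (83.0 to 137), Il4 at 89.7-fold (68.3 to 117), Il1rl1 at 14.4-fold (11.7 to 17.7) and Il33, on 2 UMIs of 1 barcode, at 2.24-fold (0.267 to 8.27). Without suffix 6 Il13 was at 162-fold, and without suffix 4, which has 12 of the 23 barcodes with Mcpt8 alone, Il1rl1 was at 24.9-fold. Il4ra was at 0.316-fold and Il13ra1 at 0.188-fold in that gate. In the T gate 3 of 9 were, against 7.37% of all genes: Il1rl1 at 3.89-fold (3.42 to 4.43), Il13 at 3.55-fold (2.76 to 4.56) and Il4 at 3.41-fold (2.61 to 4.47). The dendritic gate had 1, Il4 at 4.90-fold from the single barcode named above (0.150-fold without suffix 6), against 7.35%. The NK, macrophage, neutrophil and B gates had none, against 5.79%, 4.41%, 1.56% and 8.34%. No receptor chain but Il1rl1 and neither Socs gene thus reached 2-fold in any whole gate over all other barcodes. These gates overlap: 89.2% of neutrophil, 73.7% of T and 70.7% of NK barcodes passed another gate too, and the macrophage gate held 84.9% of all UMIs. The folds therefore do not measure the differences between single gates given above.

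Other genes of the pathway were read from a list of 36, of which 30 had enough UMIs and 11 reached 2-fold in at least 1 of the 7 gates, as did 29.4% of all 14751 genes. The basophil gate had 6: Gata2 (470-fold), the cytokine gene Csf2 (13.5-fold), Socs2 (4.68-fold), Cish (4.30-fold), Csf2rb2, a β chain for IL-3 in mice (3.83-fold), and Irs1, on 1 UMI. Csf2 rested on 38 UMIs in 3 barcodes, 34 of them in suffix 6, and without that library it was at 1.89-fold. Without suffix 4 the folds of Gata2, Csf2, Socs2, Cish and Csf2rb2 were 821, 25.8, 8.76, 7.40 and 7.0, and without suffix 5 that of Socs2 was 3.05. The T gate had Gata3 (7.94-fold), Csf2 (4.86-fold) and Rora (3.00-fold), and the NK gate Rora (2.31-fold) and Gata3 (2.14-fold, 1.98-fold without suffix 8). Neutrophils had Il1rap, the partner chain of ST2 (2.67-fold), dendritic cells Socs2 (5.01-fold), Jak2 (2.22-fold) and Irs1 (4 UMIs in 2 barcodes, 1.71-fold without suffix 3), and macrophages none. B cells had Il5ra (370-fold), which had 22 UMIs in all, 17 of them in the B gate, so that it had enough UMIs only through that gate. By role, 1 of 3 cytokines, 3 of 7 receptors, 2 of 7 transducers, 2 of 10 negative regulators and 3 of 3 transcription factors reached it. Cish and Socs2, both targets of STAT5, were 607 and 427 CPM in the basophil gate alone, against 18.4 and 10.7 in macrophages. Csf2rb, the common β chain of IL-3, IL-5 and GM-CSF, was 1630 CPM in the basophil gate alone, 373 in dendritic cells, 307 in neutrophils and 58.6 in T cells. Ptpn1, a phosphatase that acts on Janus kinases, was 9.48 CPM (1 UMI) in basophils and 273 in macrophages. Stat6 itself was 50.3 to 57.7 CPM in macrophage, neutrophil, dendritic, T, NK and ungated barcodes and 23.4 in B barcodes (4 UMIs). It was 104 CPM in the basophil gate alone (52.0 to 187, 11 UMIs), 64.9 in the set of 37 with basophil genes (33.5 to 113) and 54.7 in the whole basophil gate, and these intervals leave its order against the other gates unresolved.

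The genes most like each member were found over 41 sums of a gate in a library, by Pearson correlation of log2(CPM + 10) among 11317 genes. The sums share barcodes and libraries, and the values are descriptions. Il4 was most like P2ry1 (0.92), Gata2 (0.92) and Cd200r3 (0.91), Il13 like P2ry1 (0.93), Gata2 (0.88) and Cyp11a1 (0.87), and Il1rl1 like Gata2, Cyp11a1 and Cd200r3 (all 0.94). Il4ra was most like Rin2 (0.89), Ap1b1 (0.87) and Slc43a2 (0.85), and Il13ra1 like Csf2ra (0.89), Hsd3b7 (0.87) and Rtn4 (0.87). Il2rg stood nearest to Lck (0.79), Abcb9 (0.77) and Gimap1 (0.75), the first a kinase of T cells. Socs1 was most like Rsad2, Zbp1 and Stx11 (all 0.84), and Socs3 like Slc15a3 (0.83), Tnf (0.81) and Smox (0.81). Il33 had no near neighbour, with 0.64 for Poc1a as the highest.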

How the data were processed

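The authors deposited raw UMI counts per gene and barcode, without normalization, in a single matrix of all tumors. Libraries were made from CD45-positive cells with a 3′ droplet chemistry, and the submitters' processing notes name Cell Ranger 1.2, Seurat 3.1.5, R 4.0.1 and mm10, without their order. The highest mitochondrial share is 9.99%, and no barcode was removed here. Barcode suffixes match no sample label, so the planned edgeR comparison of treatments was not run.

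UMI counts were summed per gate with Python 3.11.15, numpy 2.4.6 and scipy 1.17.1 and divided by the summed UMIs. The members, gates and gene lists were chosen with earlier results of these data known. All 10 members are named, and other pathway genes by the rule of at least 20 UMIs and 2-fold or more in any gate, beside a few named for contrast after their values were seen (Csf2rb, Ptpn1, Stat6). For thinned shares, each barcode was reduced to 1000 or 5000 UMIs and shallower barcodes were left out. Shares of barcodes kept the gates of the full counts, whereas thinning as an alternative setting set the gates again on the thinned counts. The split of the basophil gate, the removal of single barcodes and the values without a library for levels in single gates, the split and folds were added after seeing the data. Alternatives were barcodes of exactly 1 gate, doubled gate minimums, thinning, stricter filters, removal of the barcodes with most UMIs, a mean per barcode and each library left out. Positions are from GENCODE M21 and promoter windows from RefSeq, both on GRCm38. Prss34 and Klra8 are not among the gene symbols.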

Additional observations from a re-analysis of the deposited data

How the results depend on the processing

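The share of Il4 UMIs in the basophil gate was 42.2%, and 34.3% with barcodes of exactly 1 gate, 35.2% with doubled gate minimums, 52.8% after thinning, 61.1% under the stricter barcode filter (500 genes, 5% mitochondrial), and 53.3% without the barcode with most Il4 UMIs. For Il13 (46.4%) it was 30.9% with exactly 1 gate, 38.5% with doubled minimums, 56.9% without the 5% of barcodes with most UMIs and 54.4% without its top barcode. For Il1rl1 (10.5%) it was 4.29% with exactly 1 gate and 6.12% with doubled minimums. These 2 settings narrowed only the gate and kept all UMIs of the gene as the total, so that their shares could only fall. Of the 230 Il4 UMIs, 132 lay in barcodes of more than 1 gate, 79 in the basophil gate alone and 10 in the T gate alone. For Il13 these were 141, 82 and 28 of 265, and for Il1rl1 547, 42 and 146 of 980. Leaving out each library gave 39.4% to 50.4% for Il4, 41.5% to 57.9% for Il13 and 8.53% to 12.1% for Il1rl1. With exactly 1 gate, Il4ra and Il13ra1 in macrophages were 121 and 44.8 CPM (118 and 39.4 with all), Il2rg and Socs1 in T cells 191 and 137 (146 and 119) and Socs3 in neutrophils 459 (339). Thinning gave 102, 20.4, 217, 97.6 and 488 CPM for these 5 in that order (on 20, 4, 98, 44 and 124 UMIs). The gates were set again on the thinned counts, which left 196 macrophage, 451 T and 254 neutrophil barcodes. The intervals were 62.3 to 158, 5.56 to 52.3, 176 to 265, 70.9 to 131 and 406 to 582. The mean of each barcode's own CPM gave 127, 48, 167, 134 and 374, and removal of the deepest 5% gave 120, 41.7, 155, 123 and 379. The stricter filter gave 121 for Il4ra, 41.3 for Il13ra1, 122 for Socs1 and 348 for Socs3, and doubled minimums gave 35.1 for Il13ra1. Leaving out each library gave 102 to 128 CPM for Il4ra, 37.8 to 41.9 for Il13ra1 and 106 to 127 for Socs1. Of 95 alternative values, 47 lay inside the counting interval of the main value and 48 outside it. The interval of the alternative was not used. Thinned Il4ra, Il13ra1 and Socs1 count among the 48 though their own intervals cover the main value, which those of Il2rg and Socs3 do not. Apart from what each setting removes, the cause was not tested. Depth limits the basophil barcodes most, with a median of 2728 UMIs in those of a single gate. No paired analysis was possible because the barcode suffixes match no sample label, so that tumors could not be paired across treatments. Gates were compared within libraries only by counts of libraries.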
